A study of Equus caballus with 17 samples.

Results

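MicroRNAs of adult horse testis were set against those of infant horse testis. The comparison takes 7 of the 17 libraries of a small RNA sequencing series on horse (Equus caballus) testis and sperm: 4 libraries labelled Adult (numbers 13, 20, 33 and 4) and 3 labelled Infant (31a, 31b and 30). The other libraries are 3 Pre-puber, 3 Puber and 4 sperm samples. Labels name only the tissue and the stage; breed, age in years and treatment are not among them. Libraries were chosen by these stage labels, not by any measured value. The deposited table counts 274 annotated mature miRNAs and 1461 predicted hairpins, which are described separately.

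MicroRNAs are short RNAs cut from hairpin precursors; bases 2 to 8 of the mature strand, the seed, pair with target mRNAs, and miRNAs of one seed form a family. In the infant testis the seminiferous cords hold Sertoli cells and early germ cells and no meiosis takes place, while in the adult most cells are germ cells in and after meiosis. Several miRNA families are known for these cells: miR-34b, miR-34c and miR-449 are typical of germ cells from meiosis onward, the X-linked miR-506 family is preferentially expressed in testis, and clusters of imprinted loci are active in fetal and young tissue.

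Some abundant miRNAs were present only as predicted hairpins, which the deposited table gives with sequence and position. The first sequences below are shown because the 3 most abundant of these hairpins changed. The next pair leads the many hairpins that were scarce in Infant and high in Adult, and the last 3 lie side by side on the X chromosome. In the first 3, capitals mark bases 2 to 8. From recognition of their sequence, which the table does not name, they hold let-7i, the gonad-enriched miR-202 and miR-26b. In the next pair, capitals mark stretches of 18 bases or more that another predicted hairpin also holds on either strand, and the X-linked ones are shown without capitals. Positions are in EquCab3.0 as the table gives them, with start and end differing by the hairpin's length, so 1 end lies a base outside it.
let-7i hairpin, chr6:80187888-80187965, plus strand: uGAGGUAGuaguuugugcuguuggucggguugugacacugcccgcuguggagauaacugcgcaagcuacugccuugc
miR-202 hairpin, chr1:594418-594474, plus strand: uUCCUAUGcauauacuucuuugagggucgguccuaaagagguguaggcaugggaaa
miR-26b hairpin, chr6:7834343-7834399, plus strand: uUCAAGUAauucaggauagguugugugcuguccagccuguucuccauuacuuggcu
Largest-family hairpin, chr2:5152819-5152929, plus strand: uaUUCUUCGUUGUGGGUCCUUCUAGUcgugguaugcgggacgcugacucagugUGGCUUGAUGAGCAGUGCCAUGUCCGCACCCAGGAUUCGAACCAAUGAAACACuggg
Largest-family hairpin, chr15:82462599-82462653, plus strand: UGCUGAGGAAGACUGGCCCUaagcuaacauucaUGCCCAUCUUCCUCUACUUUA
X-linked hairpin a, chrX:119901738-119901793, minus strand: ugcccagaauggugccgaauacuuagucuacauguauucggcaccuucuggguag
X-linked hairpin b, chrX:119911162-119911218, minus strand: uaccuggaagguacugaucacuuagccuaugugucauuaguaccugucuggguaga
X-linked hairpin c, chrX:119922308-119922365, minus strand: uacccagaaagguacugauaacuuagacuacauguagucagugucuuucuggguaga

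Annotated miRNAs received 9.53, 12.4 and 9.63 M reads in Infant 31a, 31b and 30, and 3.40, 2.18, 4.62 and 4.20 M in Adult 13, 20, 33 and 4, so depth differed with the group. Infant 31a and 31b share a title number, and their log2 levels had a Pearson r of 0.991 across 160 miRNAs against 0.959 and 0.969 with Infant 30. The labels do not say whether the samples came from separate animals, so p-values measure the spread between libraries, which may be technical. That spread was pooled over all 13 testis libraries, of which Pre-puber 3a and 3b also share a title number. Levels below are in CPM, each count relative to the annotated total of its library, after TMM scaling, which assumes that most miRNAs do not change. TMM factors were 0.582 to 0.830 in Infant and 0.957 to 1.56 in Adult, and levels after scaling are relative, not shares of a total. The median log2 fold change of all tested miRNAs was -0.14 with this scaling, and it moved to 0.04 with DESeq2 size factors, -0.52 with upper quartiles, 0.82 with no scaling and -1.90 with TMM over annotated miRNAs and hairpins together. Small changes therefore depended on the scaling. A list's median is given below relative to the median of all miRNAs, which moved little between scalings.

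Of 184 annotated miRNAs that passed the low-count filter, edgeR's quasi-likelihood test called 95 (51.6%) at a Benjamini-Hochberg adjusted p under 0.05. Of these 48 (26.1%) were higher and 47 (25.5%) lower in Adult, and 104 had an unadjusted p under 0.05. All Adult libraries lay on one side of all Infant ones for 92 miRNAs (50%). The split was 84 higher and 21 lower with no scaling, 40 and 65 with upper quartiles, and 30 and 120 when hairpins were fitted together with annotated miRNAs. Called in the same direction under the 4 other scalings and without each of the 7 libraries in turn were 29 of the higher and 20 of the lower miRNAs. Calls differed by how a miRNA passed the filter. Of the 149 miRNAs at or above 1.71 CPM in all 3 Infant libraries, 24 were higher and 44 lower, while 26 passed in at least 3 Adult libraries but not in all Infant ones, and 21 of those were higher and 0 lower.

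**Figure D1:**
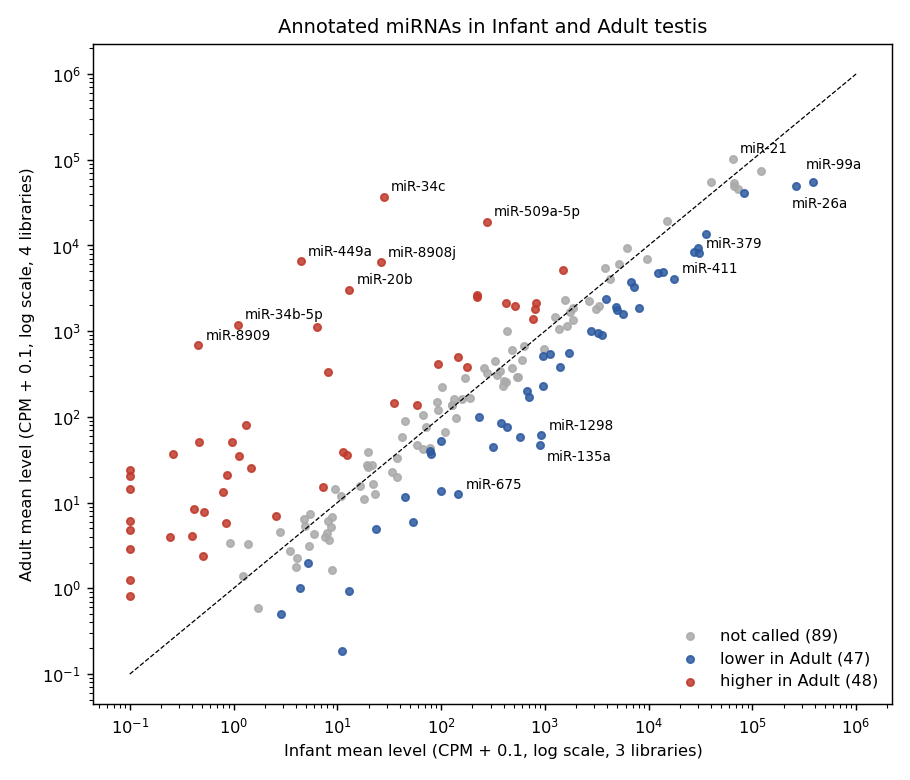
Mean level of each of the 184 tested annotated miRNAs in Infant (x axis, 3 libraries) and Adult (y axis, 4 libraries), in CPM plus 0.1 on log scales, with red for higher, blue for lower and grey for not called; the dashed line marks equal levels. miR-34c, miR-449a, miR-509a-5p and miR-8908j stand far above the line, and miR-99a and miR-26a, the most abundant in Infant, stand below it.

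The miR-34 and miR-449 family went from a trace in Infant to several percent of annotated counts in Adult. miR-34c stood at 45.7, 23.98 and 14.5 CPM in Infant 31a, 31b and 30, and at 40856, 39943, 34476 and 32500.2 CPM in Adult 13, 20, 33 and 4, the order used for all values below. Every Adult library lay far above every Infant one, and miR-34c was the tenth most abundant annotated miRNA in Adult (log2 fold change 10.36 ± 1.59 SE, adjusted p = 0.000201). Its neighbour miR-34b-5p went from 1.08, 1.67 and 0.250 to 1330.3, 1347, 1011 and 1093 CPM (log2 fold change 10.20 ± 1.45 SE, adjusted p = 0.000161, and 10.86 without Infant 31b). miR-449a went from 5.94, 4.18 and 2.88 to 8192, 4394, 6946 and 6589 CPM (log2 fold change 10.56 ± 1.79 SE, adjusted p = 0.000329). Of miR-449b, 3 counts were seen over the Infant libraries and 778 over the Adult ones, which after scaling is 284-fold (95% interval from counting error, 96.9 to 1381). Its log2 fold change was 7.84, with 8.88 without Infant 31a and 7.25 without Infant 30. miR-34a, the member known as a p53 target in many tissues, had values from 167, 84.2 and 75.6 to 48.7, 76.7, 67.9 and 70.8 CPM, with overlapping groups, and was not called (adjusted p = 0.0947). It was called lower with upper quartiles, with all entries in the fit and without Infant 30.

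Together the 5 members held 0.00773% to 0.0128% of annotated counts in Infant and 4.38% to 7.19% in Adult. Within the pair, the ratio of miR-34c to miR-34b-5p counts was 29.7 to 34.1 in the 4 Adult libraries. In bulk tissue, more cells of a type and more RNA per cell cannot be told apart here or in any result below. miR-34b, miR-34c and miR-449 mark meiotic and later germ cells, and the groups did not overlap for any of these 4 miRNAs. These are the values given above, so they are no separate check of the stage labels. Puber means, 15913 CPM for miR-34c and 2238 for miR-449a, also lay above every Infant library, so a high level is not particular to Adult.

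**Figure D2:**
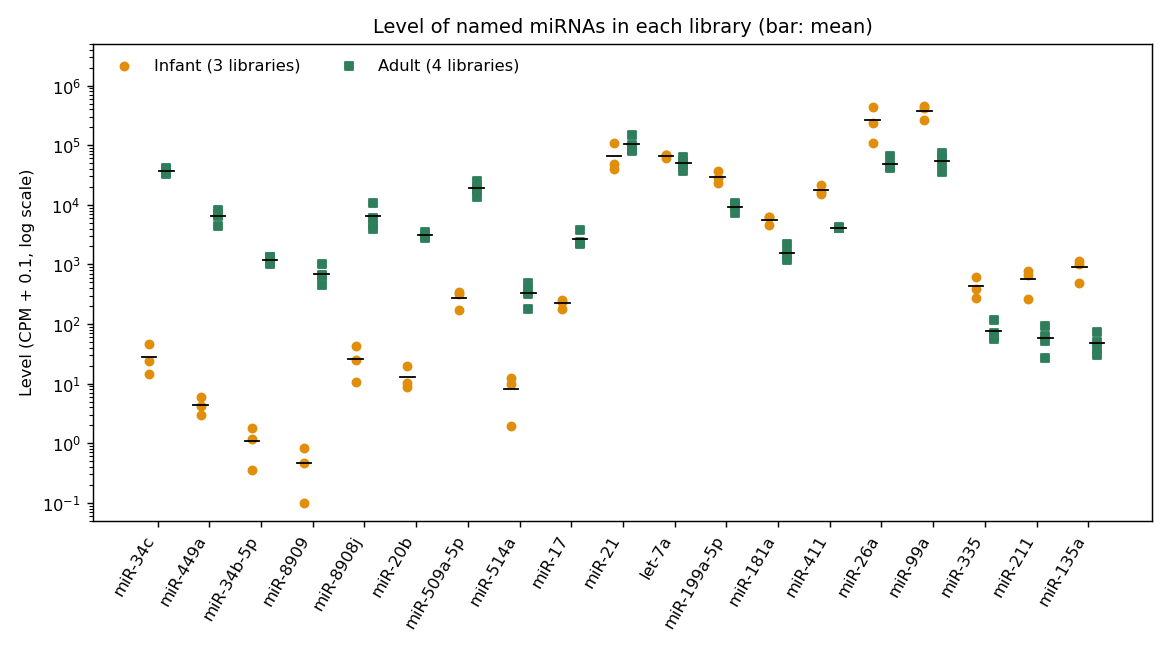
Level of 19 annotated miRNAs in each library, in CPM plus 0.1 on a log scale, with circles for the 3 Infant and squares for the 4 Adult libraries and a bar at each mean. From miR-34c to miR-17 the Adult libraries lie above all Infant ones, for miR-21 and let-7a the groups overlap, and from miR-199a-5p to miR-135a the Adult libraries lie below.

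In the miR-506 family region on the X chromosome, each of the 5 tested miRNAs was higher in Adult, under each scaling tried. Of all tested miRNAs 26.1% were higher. miR-509a-5p carried nearly all of the signal, with 345, 314 and 172 CPM in Infant and 17435, 25569, 13416 and 18896 CPM in Adult (log2 fold change 6.09 ± 0.66 SE, adjusted p = 6.2e-05). Unlike the miR-34 and miR-449 miRNAs it was already well counted in Infant, with 5927 counts. miR-514a went from 12.4, 9.78 and 1.88 to 352, 176, 482 and 318 CPM (log2 fold change 5.37, adjusted p = 0.000409), lowest in Infant 30 and highest in Adult 33. The less abundant miR-509b and miR-508-5p reached 18.99 to 57.3 and 16.9 to 36.0 CPM in Adult from at most 2.16 and 2.52 CPM (log2 fold change 5.10 and 4.24, or 6.12 and 4.98 without Infant 31a). miR-514b had 3 Infant and 82 Adult counts, which after scaling is 29.96-fold (interval 9.90 to 148), with a log2 fold change of 4.63 and of 5.37 without Infant 30. Another neighbouring pair on the X chromosome, miR-105 and miR-767-5p, known from germ cells and tumours, rose as well. miR-105 was at 0.360, 0.716 and 1.502 and 82.1, 46.5, 19.8 and 57.3 CPM (log2 fold change 5.84, and 6.47 without Infant 30), and miR-767-5p at 0.720, 1.31 and 1.63 and 117, 70.5, 35.03 and 100.004 CPM (log2 fold change 6.003, adjusted p = 0.00166). In both, Adult 33 was the lowest Adult library and still above all Infant ones.

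The miR-17-92 cluster and the paralogous clusters are known to promote cell proliferation. Of their 8 tested miRNAs, 7 were higher in Adult, beside 26.1% of all tested miRNAs. The 7 count miR-17 and miR-106a separately. Their summed level was 1609 to 2581 CPM in Infant and 10729.5 to 16469 in Adult, and the median log2 fold change lay 2.79 above that of all miRNAs. The X-linked paralog miR-20b moved most, from 10.3, 8.83 and 19.6 to 2774, 3049, 3551 and 2859.8 CPM (log2 fold change 7.88 ± 1.31 SE, adjusted p = 0.000291). miR-17 was at 235, 180.0 and 252 in Infant and 2391, 2264, 3791 and 2219.7 CPM in Adult (log2 fold change 3.58 ± 0.61 SE, adjusted p = 0.000329), with Adult 33 above the other three. miR-106a gave nearly the same counts as miR-17, with a ratio between 0.987 and 1.08 in each of the 7 libraries, so the pair cannot be told apart and is read as 1 observation. miR-93, from an intron of MCM7, rose from 439.8, 319 and 505 to 1753, 3053, 2010.3 and 1752 CPM (log2 fold change 2.35 ± 0.33 SE, adjusted p = 0.000147). miR-20a rose from 618, 462 and 481 to 2015, 1383, 2906 and 1565 CPM (log2 fold change 1.92, adjusted p = 0.00182).

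miR-106b, which neighbours miR-93, was the 1 member not called. It was at 1024, 450.02 and 194.5 CPM in Infant and 207.6, 135, 619 and 209 in Adult, with wide spread in both groups (log2 fold change -0.92, adjusted p = 0.173). miR-18a and miR-18b were called higher at low levels, with Adult ranges of 16.3 to 60.7 and 2.40 to 11.1 CPM, and the call of miR-18a ended without Infant 31b or without Adult 33 (log2 fold change 1.32 and 1.19). With all entries in the fit, 3 of the 8 were called higher and 1 lower, while the list's median lay 2.84 above that of all miRNAs.

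A further set with high Adult levels carries numbers given to miRNAs described from horse, and little is known of its function. miR-8908j went from 43.0, 25.1 and 10.5 to 3999.8, 10934, 5972 and 4638 CPM (log2 fold change 7.93 ± 1.08 SE, adjusted p = 0.000138), with Adult 20 highest. miR-8908g went from 11.5, 5.25 and 2.25 to 1427, 744, 1352 and 973 CPM (log2 fold change 7.48, and 8.24 without Infant 31a). miR-8909 went from 0.720, 0.358 and 0 to 645, 1003, 445 and 659 CPM, or from 7 to 12287 counts (log2 fold change 10.93 ± 2.42 SE, adjusted p = 0.00199, with 11.75 without Infant 31a and 10.30 without Infant 30). miR-8908k had 9 Infant and 1052 Adult counts, which after scaling is 128.1-fold (interval 67.2 to 281). Infant 31b gave 8 of the 9, and the log2 fold change went from 6.96 to 9.15 without it. miR-8908f had 0 Infant and 416 Adult counts and was at least 152-fold higher, taking 3 counts over the Infant group as the floor.

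The 4 miR-8908 entries lie within 10 kb of a neighbour in the RefSeq horse annotation (assembly TB-T2T), and all 4 were higher under each scaling. Of 72 miRNAs with such horse numbers in the table, 52 did not pass the filter. Of the 20 tested, 13 were higher and 1, miR-9156, lower, beside 26.1% and 25.5% of all tested miRNAs. However, 8 of the 13 had 0 Infant counts and so could pass the filter only through Adult or another stage. Adult means of those 8 were 0.719 to 23.97 CPM. miR-9156 was at 15.1, 18.02 and 0 CPM in Infant and 0, 0, 0 and 0.342 in Adult, and its call ended without each of 4 libraries (adjusted p = 0.0502 without Infant 31a).

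A few miRNAs best known from other tissues were also called higher. miR-499-5p, from an intron of a muscle myosin gene, went from 36.4, 30.8 and 38.3 to 146, 115, 156 and 165 CPM (log2 fold change 2.05 ± 0.34 SE, adjusted p = 0.000291). miR-9a, known from brain, went from 102, 96.4 and 84.1 to 368, 628, 352 and 325 CPM (log2 fold change 2.15, adjusted p = 0.000201), with Adult 20 above the rest. Neither was called with all entries in the fit, where the log2 fold change was 0.26 for miR-499-5p and 0.33 for miR-9a. miR-138, also of the neural list, rose from 1.80, 0.358 and 0.125 to 19.6, 30.7, 12.05 and 20.9 CPM (log2 fold change 4.83, and 6.32 without Infant 31a). The others of that list, miR-129a-5p and miR-129b-5p, had almost identical counts and were not called, and miR-124 did not pass the filter. miR-371-5p, of a cluster active in early embryos and germ cells, had 7 Infant and 73 Adult counts (11.4-fold after scaling, interval 5.28 to 29.4), with 6 of the 7 from Infant 31b. Its log2 fold change was 3.58, with 5.38 without Infant 31b, 2.97 without Infant 30 and 2.96 without Adult 4, and it was not called with all entries in the fit (1.64). The liver miRNA miR-122 went from 7.74, 13.96 and 12.3 to 52.8, 31.2, 24.4 and 49.1 CPM (log2 fold change 1.79, adjusted p = 0.0159). Its call ended without Infant 31a, Adult 13 or Adult 4, and miR-192 and miR-194 were not called.

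**Figure D3:**
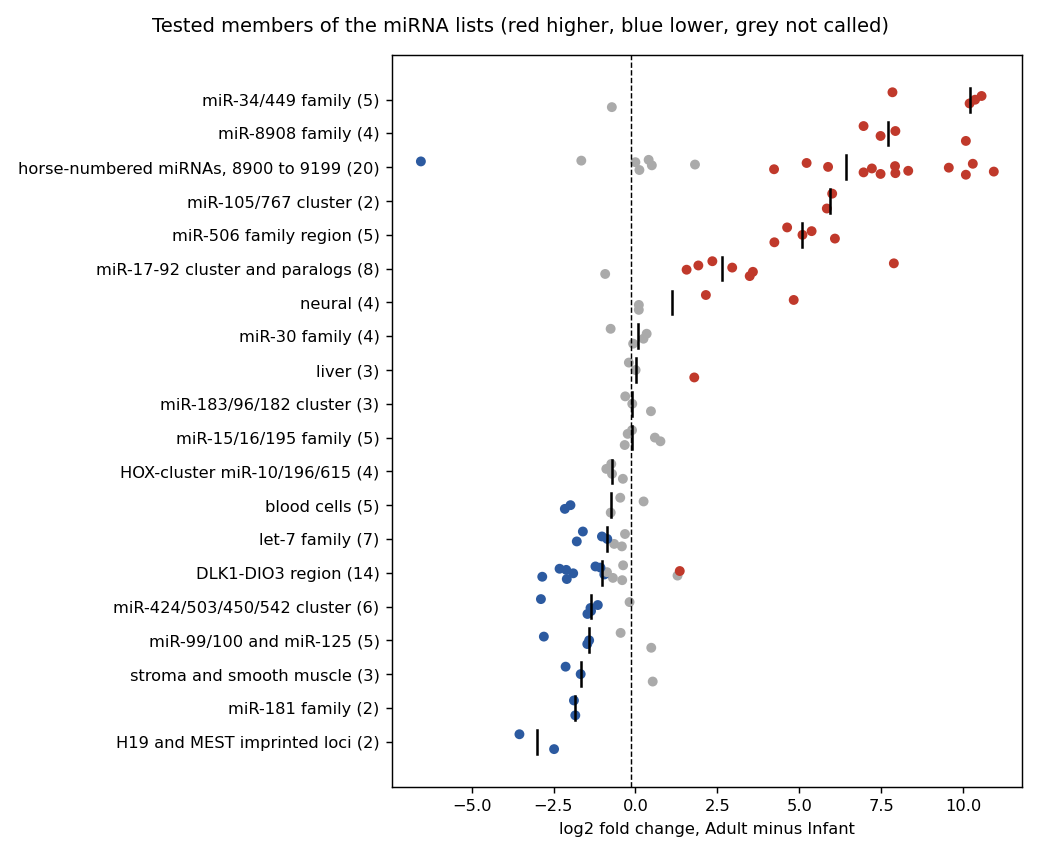
log2 fold change, Adult minus Infant, of each tested member of the lists with at least 2 tested members (number in brackets), with red for higher, blue for lower and grey for not called, a bar at the list's median and a dashed line at the median of all 184 miRNAs, -0.14. The miR-34 and miR-449, miR-8908, horse-numbered, miR-105 and miR-767, and miR-506 lists lie farthest to the right. Values there of miRNAs with 0 Infant counts depend on the prior count. The H19 and MEST, miR-181 and stromal lists lie to the left.

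In Infant testis 2 miRNAs had the highest mean levels of all annotated miRNAs, and both were lower in Adult under each scaling. miR-99a was at 425523, 452715 and 263206 CPM in Infant and 60905, 73996, 35533 and 48826 in Adult (log2 fold change -2.80 ± 0.34 SE, adjusted p = 9.5e-05), a change from 21.8% to 30.7% of annotated counts to 5.56% to 8.67%. miR-26a was at 438512, 234885 and 108992 CPM in Infant and 41608, 64732, 45747 and 43815 in Adult (log2 fold change -2.41 ± 0.38 SE, adjusted p = 0.000208). Infant 31a held several times more miR-26a than Infant 30, and the log2 fold change was -1.80 without Infant 31a. Its share of annotated counts was 25.5%, 15.9% and 9.04% in Infant 31a, 31b and 30 and 5.93% to 7.15% in Adult. The share in Infant 30 was near the highest Infant share of miR-21, 8.89%. The predicted hairpin holding miR-26b, which has the same seed as miR-26a, gave 37010.0, 27034 and 13701 CPM in Infant and 2645, 4844, 4892 and 3233 in Adult, the same order of Infant libraries as miR-26a (log2 fold change -2.73 ± 0.38 SE, adjusted p = 2.8e-05).

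miR-99a and miR-100, its close relative in sequence, were unequally changed. miR-100 stood at 41479, 36843 and 40875 CPM in Infant and 48605, 76251, 43886 and 53196 in Adult, with every Adult library above every Infant one, yet it was not called (log2 fold change 0.48, adjusted p = 0.179). Counts of miR-99a over miR-100, a ratio that scaling cannot move, were 10.3, 12.3 and 6.44 in Infant and 1.25, 0.970, 0.810 and 0.918 in Adult. miR-125b-5p, which comes from the same clusters, went from 28488, 32639 and 46348 to 18048, 9651, 12906 and 13208 CPM (log2 fold change -1.41 ± 0.31 SE, adjusted p = 0.00198) and was not called without scaling. miR-125a-5p was called lower with overlapping groups (log2 fold change -1.47, adjusted p = 0.0232), and the call ended without Infant 30 (-0.87) or Adult 20 (-1.30).

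The let-7 family, which rises with differentiation in many tissues, split by member, and let-7a and let-7g changed direction with the scaling. let-7a, at 68320.0, 69021 and 60952 CPM in Infant and 46151, 64005, 36360.0 and 51880.2 in Adult, was not called (log2 fold change -0.41, adjusted p = 0.201), nor were let-7c and let-7g. let-7d fell from 2906, 3067 and 3881 to 1049.8, 807, 954 and 987 CPM (log2 fold change -1.79 ± 0.28 SE, adjusted p = 0.000208). miR-98 fell from 1963, 1621 and 1558 to 576, 698, 447 and 533 CPM (log2 fold change -1.61, adjusted p = 0.000417). let-7f, with 90549, 86437 and 72598 CPM in Infant and 30432, 68710.0, 22177 and 42469 in Adult, was called lower narrowly (log2 fold change -1.02, adjusted p = 0.0443), and the call ended without each of 5 libraries, as did that of let-7e without each of 6. With no scaling, let-7a and let-7g were called higher and 1 member lower. The let-7i hairpin was at 98138, 106525 and 114338 CPM in Infant and 28502, 46685, 24776 and 33359.5 in Adult (log2 fold change -1.67 ± 0.22 SE, adjusted p = 1.4e-05), lower under each scaling and without each library. Its Infant level was above that of every annotated let-7.

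Ratios of counts within a library do not depend on scaling. let-7c and miR-99a lie within 10 kb of each other in the annotation, and counts of miR-99a over let-7c were 5.56, 6.41 and 3.80 in Infant and 1.71, 0.995, 1.15 and 1.13 in Adult. let-7a over its neighbour miR-100 gave 1.65, 1.87 and 1.49 in Infant and 0.9495, 0.839, 0.8285 and 0.975 in Adult. Neither ratio overlapped between the groups, although let-7a is also made from other loci, whose counts cannot be told apart.

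**Figure D4:**
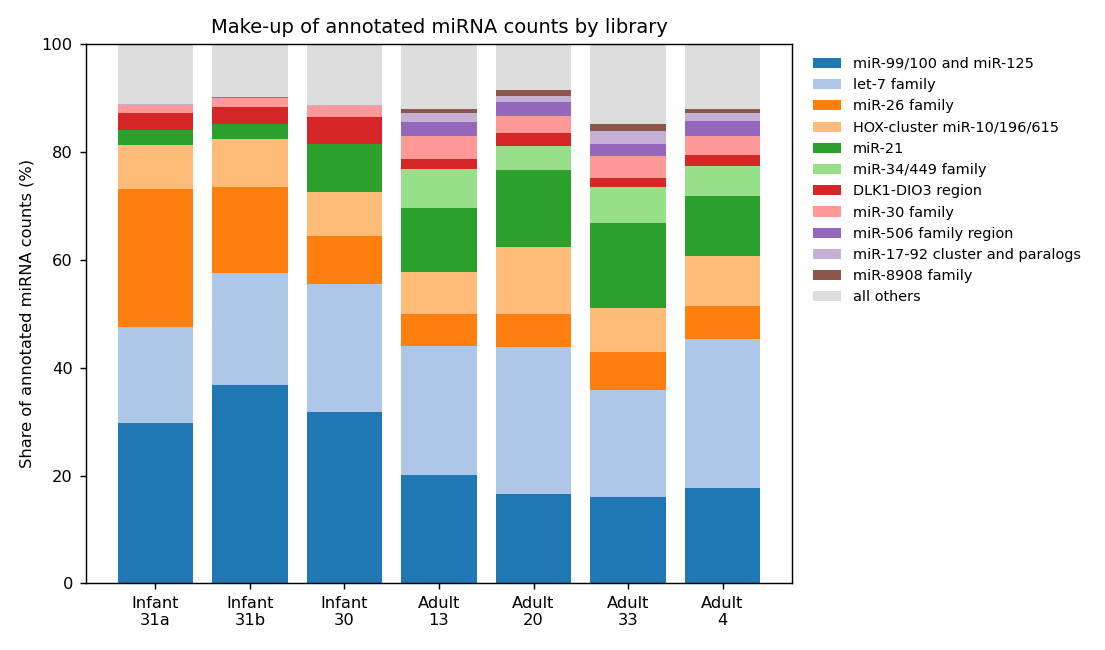
Share of annotated miRNA counts (%) held by 11 groups of miRNAs in each of the 3 Infant and 4 Adult libraries, as stacked bars from 0. The miR-99, miR-100 and miR-125 share is 29.8% to 36.8% in Infant and 15.9% to 20.1% in Adult, while miR-34 and miR-449 is not visible in Infant and holds 4.38% to 7.19% in Adult.

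Imprinted loci gave mostly lower levels in Adult. miR-675, cut from the H19 transcript, went from 96.2, 87.2 and 254 to 15.5, 12.95, 9.55 and 12.1 CPM (log2 fold change -3.54 ± 0.62 SE, adjusted p = 0.000409), with Infant 30 highest and a log2 fold change of -2.89 without it. miR-335, from an intron of MEST, went from 618, 389 and 276 to 55.1, 60.9, 119 and 71.1 CPM (log2 fold change -2.48 ± 0.36 SE, adjusted p = 0.000161). Of 14 tested miRNAs of the DLK1-DIO3 region, a large cluster expressed from 1 parental chromosome, 8 were lower, 1 higher and 5 not called, with a median 0.87 below that of all miRNAs on the log2 scale. Of all tested miRNAs 25.5% were lower and 26.1% higher. miR-411 was at 16722, 15138 and 21392 CPM in Infant and 4018, 4237, 4044 and 4122 in Adult (log2 fold change -2.11 ± 0.24 SE, adjusted p = 6.2e-05). miR-299 went from 309, 284 and 367 to 37.1, 49.9, 48.2 and 43.1 CPM (log2 fold change -2.84, adjusted p = 6.2e-05). miR-379 went from 30098, 28739 and 32248 to 5185, 16979, 3953 and 6429.6 CPM, with Adult 20 well above the other Adult libraries (log2 fold change -1.90, and -2.56 without it).

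Not all of that region moved one way. miR-409-5p stood at 639, 468 and 1379 CPM in Infant and 1970.5, 2708, 1739 and 2041 in Adult and was called higher (log2 fold change 1.35, adjusted p = 0.0325), a call that ended without Infant 31a, Infant 31b or Adult 20 and with upper quartiles. The ratio of miR-411 to miR-409-5p counts was 26.2, 32.3 and 15.5 in Infant and 2.04, 1.57, 2.33 and 2.02 in Adult. Weak calls in the list were those of miR-432 (adjusted p = 0.0355), which ended without each of 5 libraries, of miR-485-5p and miR-369-5p, and of miR-136 and miR-431. The call of miR-485-5p ended without Infant 30 or Adult 13, and that of miR-369-5p without Infant 30 or Adult 33. The calls of miR-136 and miR-431 ended without each of 4 and 5 libraries: the log2 fold change of miR-136 was -2.10 and -0.99 without Infant 31a, and that of miR-431 -2.32 and -0.58 without Infant 30. With no scaling, 3 of the 14 were called lower and 2 higher. 8 predicted hairpins on chromosome 24 between 43177988 and 43798971 include 2 recognised as miR-376, a family of the same region. This region was chosen after its values were seen. Of these hairpins 6 were tested, 0 were higher and 3 lower, beside 91.7% higher and 2.12% lower of all hairpins tested. Most tested hairpins passed the filter only through later stages, so those percentages lean to rises and no conclusion is drawn from the contrast. Of the 48 hairpins at or above 1.71 CPM in all 3 Infant libraries, 15 were higher, 15 lower and 18 not called. The 2 of miR-376 share all their counts and are read as 1 observation. They fell from 143, 78.9 and 122 to 24.6, 27.3, 60.8 and 25.5 CPM (log2 fold change -1.73, adjusted p = 0.0229, unadjusted p = 0.0212), a call that ended without Infant 31a, Adult 13, Adult 20 or Adult 4. The third of those lower, at chr24:43177988-43178049, had 17, 30 and 53 Infant counts and 0 Adult counts, at least 30.4-fold lower with a floor of 3 counts over the Adult group.

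The X-linked cluster of miR-424, miR-503, miR-450 and miR-542, which acts against cell division in several tissues, had 5 of 6 members lower, beside 25.5% of all tested miRNAs. miR-450b-5p went from 12592, 13852 and 10356 to 4471, 5242, 3765 and 5474 CPM (log2 fold change -1.37 ± 0.30 SE, adjusted p = 0.00189). miR-450a and miR-450c had log2 fold changes of -1.36 and -1.15. miR-542-5p went from 184, 79.6 and 34.8 to 14.7, 11.99, 13.3 and 13.7 CPM (log2 fold change -2.88, and -2.08 without Infant 31a). miR-503 was not called (log2 fold change -0.18), and the call of miR-424 ended without each of 5 libraries. With no scaling only miR-542-5p of the 6 was called. X-linked miRNAs stood on both sides, with miR-20b, miR-105 and the miR-506 family higher and this cluster lower.

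The paired miR-181a and miR-181b, known from lymphocytes and differentiating tissue, fell by similar amounts under each scaling. miR-181a went from 6204, 6168 and 4542 to 1552, 1175, 1384 and 2207 CPM (log2 fold change -1.84 ± 0.27 SE, adjusted p = 0.000165). miR-181b went from 1048, 1586 and 1563 to 403, 381, 296 and 443 (log2 fold change -1.88, adjusted p = 0.000138). Large falls at moderate levels were those of miR-135a, from 1156, 1035 and 479.6 to 37.4, 49.9, 72.1 and 30.1 CPM (log2 fold change -4.23 ± 0.55 SE, adjusted p = 0.000134), and of miR-1298, from 1173, 825 and 776 to 15.9, 172, 28.0 and 26.8 CPM (log2 fold change -3.94). Adult 20 held several times more miR-1298 than the other Adult libraries, and without it the log2 fold change was -5.30. miR-211, from an intron of TRPM1, went from 668, 788 and 261 to 63.2, 93.1, 26.4 and 50.9 CPM (log2 fold change -3.30, adjusted p = 0.000161). miR-873 went from 66.5, 49.4 and 45.4 to 5.37, 3.36, 3.05 and 11.8 CPM (log2 fold change -3.17, and -3.90 without Adult 4).

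Markers of other cell types were read beside these groups. Of the stromal and smooth muscle list, miR-199a-5p fell from 37562, 23429 and 28524 to 10594, 7163, 9588 and 10118 CPM (log2 fold change -1.67 ± 0.23 SE, adjusted p = 0.000138). miR-199b-5p fell from 9364, 5464 and 9375 to 1119.6, 2639, 1263 and 2344 CPM (log2 fold change -2.13). miR-145, of smooth muscle, was at 4283, 3436 and 3618 and 4059, 5173, 7965 and 4569 CPM and was not called (adjusted p = 0.141). With no scaling miR-199a-5p was not called and miR-145 was called higher, and with all entries in the fit miR-145 was called lower. The list's summed level was 32329 to 51209 CPM in Infant and 14975 to 18816 in Adult. Of the blood cell list, 2 of 5 were called lower, beside 25.5% of all tested miRNAs. miR-155, of activated immune cells, fell from 3248, 3153 and 4279 to 931, 877, 760.0 and 1034 CPM (log2 fold change -1.98, adjusted p = 0.000161), while that of lymphocytes, miR-150, fell from 420.2, 510.3 and 201 to 89.2, 88.3, 116 and 45.6 CPM (log2 fold change -2.16). miR-142-5p, with means of 427 CPM in Infant and 253 in Adult and overlapping groups, was not called (log2 fold change -0.76, adjusted p = 0.18). It was called lower with upper quartiles, with all entries in the fit and without Adult 33.

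The red cell miRNAs miR-486-5p and miR-451 followed single libraries and not the groups. miR-486-5p was at 243, 325 and 5014 CPM in Infant and 664, 719, 3191 and 821 in Adult, and miR-451 at 113, 59.9 and 656 and 83.4, 94.5, 1026 and 107, each highest in Infant 30 and Adult 33 within the groups. The endothelial miR-126-5p was at 424, 342 and 218 and 609.6, 321, 317 and 535 CPM and was not called. Summed levels of the blood list were 4311.5 to 10786 CPM in Infant and 1957 to 5558 in Adult. The part of any other cell type in the changes above was not tested. The defining epithelial miR-200 family was not analysed here, and miR-202, the gonadal marker, is described with the hairpins.

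Several abundant or clustered families gave no call at all. None of 5 tested members of the miR-15, miR-16 and miR-195 family, of the 3 miRNAs miR-182, miR-183 and miR-96, which form a cluster, of 4 of the miR-30 family or of 4 of the HOX-cluster miR-10 and miR-196 was called. The medians of the first 3 of these lists lay 0.04, 0.04 and 0.23 above that of all miRNAs, and that of the HOX list 0.58 below. miR-30d, for example, stood at 14191, 16597 and 14401 CPM in Infant and 19669.5, 25317, 14516 and 16853 in Adult, and miR-10b of the HOX clusters at 138530.0, 129863 and 97906 and 54434, 127323, 51417 and 64197. miR-21 had the highest mean of all annotated miRNAs in Adult, 103048 ± 31780.1 CPM (SD, n = 4), against 64982 ± 36776 (n = 3) in Infant, where Infant 30 at 107192 CPM lay within the Adult range, and it was not called (log2 fold change 0.67, adjusted p = 0.125). It was called higher without Infant 30. All 7 tested miRNAs of the X-linked group of miR-188-5p, miR-362-5p, miR-500, miR-501-5p, miR-502-5p, miR-532-5p and miR-660 were also not called. A p above the threshold does not show equal levels, and the scaling moved these lists both ways. With no scaling, 3 of the miR-30 family, 2 of the miR-15, miR-16 and miR-195 family and 1 of the miR-183 group were called higher. With all entries in the fit, 4, 4 and 2 of them and the 4 of the HOX clusters were called lower, and with upper quartiles 1 of the miR-30 family and 1 of the HOX clusters. A predicted hairpin at chr20:63894234-63894290 whose bases 2 to 8 are those of the miR-30 seed was called lower, from 5756, 10280.3 and 9259 to 3355, 4455, 2164 and 4615 CPM (log2 fold change -1.21, adjusted p = 0.00315), though not with no scaling.

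Calls of neighbouring miRNAs were compared in direction. Of 26 groups of at least 2 tested miRNAs within 10 kb of each other, 13 had at least 2 called members. In 12 of these the called members went the same way, and the other was the DLK1-DIO3 group with miR-409-5p higher and miR-485-5p and miR-369-5p lower. Each of those DLK1-DIO3 calls ended when some libraries were left out. Over all tested miRNAs 48 were higher and 47 lower, and how many groups would go the same way at random was not computed. Neighbours often share a transcript, so their calls are not independent.

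Predicted hairpins gave a lopsided picture. Of 708 tested, 664 (93.8%) were called, 649 (91.7%) higher and 15 (2.12%) lower in Adult, 664 had an unadjusted p under 0.05, and for 657 (92.8%) the groups did not overlap. Most passed the filter only through later stages: 613 reached 1.71 CPM in at least 3 Adult libraries and not in all Infant ones, and 604 of these were called higher. Among the 48 that reached it in all 3 Infant libraries, 15 were higher, 15 lower and 18 not called. With so many small p-values in the pool, adjustment moved hairpin p-values little, from 0.0758 to 0.0800 for the hairpin recognised as miR-152. Adjusted p-values of hairpins well counted in Infant thus rest on a pool made up mostly of hairpins that passed through later stages. An adjustment over the 48 alone was not made. Hairpins with at least 5 counts numbered 154, 187 and 198 in Infant and 768, 650, 760 and 755 in Adult, although the Adult libraries were shallower. Leaving out the 7 hairpins of at least 1000 CPM in Infant, the summed level was 3319, 3036 and 3335 CPM in Infant and 65175, 45506, 33176 and 48252 in Adult.

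**Figure D5:**
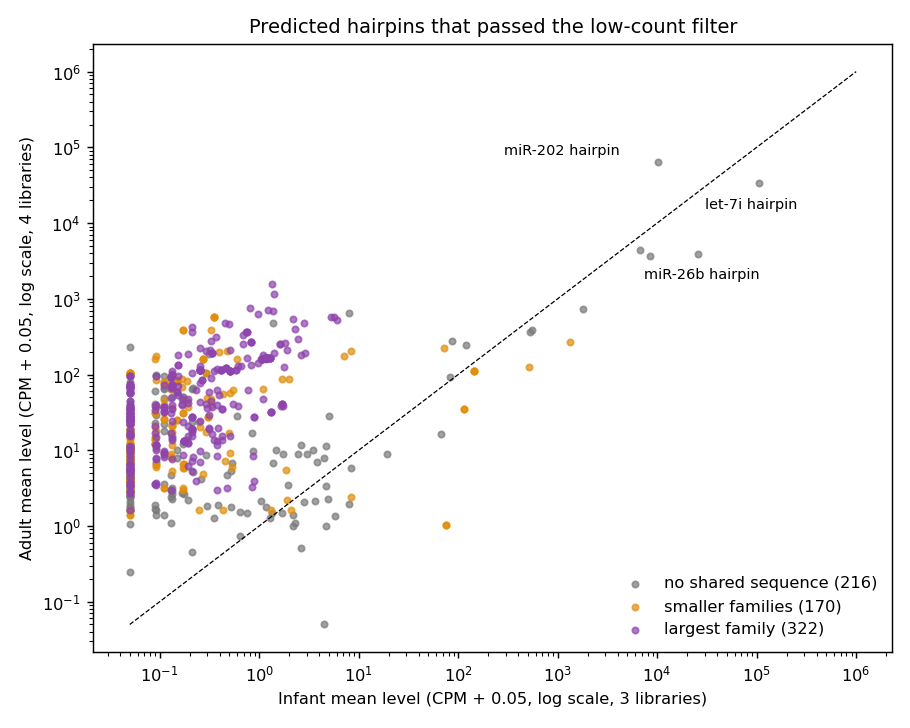
Mean level of each of the 708 tested predicted hairpins in Infant (x axis, 3 libraries) and Adult (y axis, 4 libraries), in CPM plus 0.05 on log scales, coloured by whether a hairpin shares sequence with others; the dashed line marks equal levels. Nearly all of the 322 hairpins of the largest family lie above the line at under 10 CPM in Infant, and the let-7i, miR-202 and miR-26b hairpins, recognised by sequence, lie at the upper right.

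Sequence sharing marked many of the Adult hairpins. The largest family, linked by runs of 18 bases in common on either strand, had 338 members on all 32 chromosomes that carry hairpins, and 322 were tested. Of those 320 were higher and 0 lower, beside 91.7% higher and 2.12% lower of all hairpins tested. No member had an Infant mean above 5.95 CPM. Most tested hairpins passed the filter only through later stages, so such counts lean to rises. The family's summed level was 127, 134 and 149 CPM in Infant and 44698, 31237, 21352 and 32177 in Adult. Whether 1 read was counted for several of them is not given in the sources used here, so members are not separate observations. The most abundant member, at chr2:5152819-5152929, had 1.80, 0.954 and 1.13 CPM in Infant and 2306, 1472, 1043 and 1466 in Adult (log2 fold change 10.24 ± 1.18 SE, adjusted p = 9.7e-06), and the second, at chr15:82462599-82462653, 1.44, 2.15 and 0.501 and 2219, 911, 373 and 1114 (log2 fold change 9.71). Puber means of these members were 834 and 789 CPM, so a high level is not particular to Adult. The 12 bases aggaagauuggc were found in 82 of the 1461 hairpins (5.61%) on either strand, all of them in this family. Of the 216 tested hairpins that share no sequence, 174 were higher and 8 lower.

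Among hairpins with no counts at all in Infant, the one at chr21:15197216-15197284 reached 357, 76.7, 171 and 329 CPM in Adult and was at least 1845-fold higher, with a floor of 3 counts over the Infant group. It is the first of 6 rises named by a rule that takes only the most abundant hairpin of each group sharing sequence. The others of the 6, all with 0 Infant counts and no shared sequence, were at least 349-fold to 823-fold higher, and members of shared groups that the rule passed over reached fitted rises within the same range. The 823-fold value, at chr29:1853763-1853816, was led by Adult 4, with 21.9, 13.9, 27.003 and 329 CPM in the Adult libraries. On the X chromosome, hairpin a was at 12.4, 9.43 and 1.88 CPM in Infant and 737, 614.9, 710.0 and 501 in Adult (log2 fold change 6.34 ± 0.98 SE, adjusted p = 5.5e-05). Hairpin b was at 1.08, 1.67 and 1.25 and 494, 381, 683 and 377 CPM (log2 fold change 8.48, adjusted p = 1.4e-05). Hairpin c, not tested, had 0 Infant counts and 0, 9, 28 and 4 Adult counts.

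The hairpins recognised as known miRNAs differed in direction. The miR-202 hairpin was at 15224, 11587 and 3703 CPM in Infant and 39439, 70737, 104404 and 42481 in Adult (log2 fold change 2.66 ± 0.45 SE, adjusted p = 0.000101). miR-202 is known from Sertoli and germ cells, and it was present in every library; Infant 30 was lowest and Adult 33 highest. Its rise was not called with TMM over all entries, where the log2 fold change was 0.94. The hairpin recognised as miR-574, at chr3:90484144-90484202, fell from 1459, 1416 and 1118 to 203, 378, 259 and 243 CPM (log2 fold change -2.30). That recognised as miR-152 was at 9516, 6529 and 4349 and 4268, 3771, 5762 and 4100.3 CPM and was not called (adjusted p = 0.08). The largest fall by log2 fold change among hairpins of at least 50 CPM, at chr7:45229963-45230041, was from 11.9, 26.1 and 189 to 0.619, 2.88, 0.277 and 0.171 CPM (log2 fold change -6.44), and a second hairpin shares these counts. It was highest in Infant 30, and the log2 fold change was -4.54 without it and -7.69 without Adult 20.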

How the data were processed

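Small RNA of horse testis at 4 stages (13 libraries) and of sperm (4) was sequenced; sperm was left out of the fits. Per the labels' protocols, RNA was extracted with TRIzol, treated with DNase and ligated to adapters. The submitters' processing notes name Trimmomatic and the build EquCab3.0; no aligner, miRNA caller or rule for reads that match several places is named there. The deposited table holds read counts per entry, not normalized, and beside them deposited RPM values, which equal the count scaled to the column total within 0.005 and were not tested. No column belongs to a sample of another series. Libraries were matched to columns by number; the column of Adult 4 was told from that of sperm 4 by its prefix, which is an inference.

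Where 1 name had several entries (22 of 274 names), the one with most counts was kept. edgeR 4.0.16 (R 4.3.3) fitted the 13 testis libraries by stage (filterByExpr, TMM, quasi-likelihood F test, Adult minus Infant, Benjamini-Hochberg over all tested, threshold 0.05), and hairpins were fitted apart with the library sizes and factors of the annotated miRNAs. Standard errors are the log2 fold change divided by the square root of F and are approximate. Intervals of count ratios are 95% and cover counting error only, since reads without molecular identifiers are not independent molecules. Summed annotated counts ran from 2.18 to 12.4 M, so Adult values rest on fewer counts.

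Named miRNAs are the 12 largest rises and falls among called miRNAs of at least 50 CPM without overlap, the 10 most abundant per group and, of each list, the 4 most abundant and all called members of lists of up to 6; others were chosen after their values were seen, as were the hairpin regions on chromosomes X and 24. Members and lists were chosen with earlier results of these data known. Hairpins were grouped by shared runs of 18 bases, in place of the mature sequences that the rule had foreseen; 6 rises, 6 falls and those of at least 1000 CPM were eligible to be named. Neighbours come from RefSeq's horse annotation (TB-T2T), which matched 270 of 274 names and gave no coordinates used here. The planned test of arm ratios was not run, as only miR-338 and miR-371 have both arms. The scripts were tested on simulated data. Of 4-fold changes in Adult, 46 of 60 were recovered among annotated miRNAs and 0 of 200 among hairpins. Of 64-fold changes, 59 of 60 and 189 of 200 were recovered, with 1 and 5 false calls. Only 200 hairpins were changed there, against 664 of 708 called in the data, so the hairpin rates need not hold for the reported fit. A hairpin that was not called may still have changed by a moderate amount. Alternatives were DESeq2 1.42.0, limma-voom (limma 3.58.1), other scalings and filters, thinned counts and each library left out.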

Additional observations from a re-analysis of the deposited data

Results flagged for a closer look

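Within the 4 Adult libraries, 9 of 99 named features had 1 library far from the other three by Dixon's gap ratio, a rate that chance sets at about 1 in 20. Adult 20 was high for miR-9a at 628 CPM, miR-1298 at 172, miR-10b at 127323 and the hairpin at chr7:45229963-45230041 at 2.88. Adult 33 was high for miR-17 at 3791 CPM, for miR-106a, which has nearly the same counts, at 3519, for the red cell miRNA miR-486-5p at 3191 and for the miR-376 hairpin at chr24:43350118-43350176 at 60.8. Adult 4 was high for the hairpin at chr29:1853763-1853816 at 329 CPM. The cause was not tested.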

How the results depend on the processing

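Counts of called annotated miRNAs (95 of 184) depended most on the scaling. With no scaling beyond the total 84 were higher and 21 lower, and with all entries in the fit 150 were called, 30 higher and 120 lower. With a mean of at least 50 CPM, which leaves fewer miRNAs to test, 61 were called, 28 of them lower. DESeq2 called 93, limma-voom 90, DESeq2's size factors in edgeR 87, the 7-library fit 90, thinned counts 82 and libraries of 1 title number summed 80. Leaving out each library in turn gave 75 to 92 called annotated miRNAs, 40 to 50 higher and 33 to 44 lower, or 96, 49 and 47 without Pre-puber 14, and for hairpins 649 to 685 called, 632 to 671 higher and 11 to 17 lower. Hairpins called lower (15 of 708) were 40 with TMM over all entries, 7 with no scaling and 24 with no low-count filter, and with 1 hairpin per group sharing sequence 233 were called, 221 higher. Among values called in the reported fit or under the alternative, the log2 fold change turned sign with all entries in the fit for miR-122 (-0.21), miR-409-5p (-0.38), miR-21 (-1.06), miR-145 (-1.20), miR-100 (-1.32), miR-16 (-1.10), miR-30d (-1.54), miR-126-5p (-1.44), miR-30c (-1.63), miR-129b-5p (-1.79), miR-129a-5p (-1.79) and miR-192 (-1.76), and with no scaling for let-7a (0.49), let-7g (0.55) and miR-30b (0.96). Of all values of single miRNAs and hairpins under the alternatives, 1724 kept their side of the threshold, of which 71, of 23 features called in neither fit, turned sign; 53 passed it newly, 64 no longer passed it and 15 turned. The cause of these shifts was not tested. No paired analysis was possible because Adult and Infant share no replicate number. Depth limits rises from 0 Infant counts, which are lower bounds.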

Other observations

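Some called miRNAs outside the lists are described here, chosen after their values were seen. miR-340-5p was at 1782, 1287 and 1411 CPM in Infant and 5719, 5767, 3989 and 5220.0 in Adult (log2 fold change 1.79, edgeR adjusted p = 0.000241). Neither it nor miR-374b was called with all entries in the fit. miR-374b was at 150.03, 119 and 169 and 666, 366, 579.8 and 368 CPM (log2 fold change 1.76), and miR-383, known from testis, at 48.6, 69.9 and 57.2 and 135, 161, 149.7 and 111 (log2 fold change 1.25, adjusted p = 0.0087), the last not called with upper quartiles or all entries. miR-361-5p, from an intron of CHM, fell from 821, 791 and 487 to 147, 158, 252 and 125 CPM (log2 fold change -2.04), and miR-101 from 45019.8, 24114 and 12730.1 to 6068, 7672, 11624 and 8039 (log2 fold change -1.71, adjusted p = 0.00259), which was not called with no scaling. miR-146a, induced in inflammation, was at 7641, 4670.0 and 2614 and 1493, 3117, 1190.5 and 1206 CPM (log2 fold change -1.51, adjusted p = 0.00984), and its call ended with no scaling (-0.59) and without Infant 31a (-1.05). miR-337-5p, which lies in the DLK1-DIO3 region but was not in the list, fell from 12.2, 12.8 and 13.9 to 0.413, 0.480, 1.11 and 1.37 CPM (log2 fold change -3.83). It was scarce in Adult, with 19 counts over the 4 libraries against 286 in Infant.

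Both arms were listed for miR-338 and miR-371 alone. miR-338-3p had 29, 27 and 27 Infant and 9, 1, 20 and 9 Adult counts, and miR-338-5p 58, 67 and 33 against 29, 5, 27 and 19. Of miR-371-3p 1 count was seen in Infant and 1 in Adult.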
